A study of Mus musculus with 12 samples.

Results

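Matrix metalloproteinases are zinc-dependent proteases that cleave collagens, laminins and other proteins of the extracellular matrix, and tissue inhibitors of metalloproteinases (TIMPs) bind their active sites and block them. In injured brain these proteases are known for degrading the basement membrane of vessels and for later remodelling of the scar, and most of them are made as inactive precursors. Transcript levels therefore do not give protease activity, which was not measured here. The 6 proteases Mmp2, Mmp3, Mmp9, Mmp12, Mmp14 and Mmp19 and the 4 inhibitors Timp1, Timp2, Timp3 and Timp4 were chosen by gene symbol. The choice was made with earlier results of these data known, so it was not blind to the outcome. All 10 were matched to an Ensembl identifier among the 35697 genes of the 2018 count table and the 55637 of the 2022 table, and all 10 had enough counts to be tested in both.

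RNA-seq of brain tissue was performed in 12 mouse libraries in 4 groups of 3. Adult male C57BL/6J mice received a controlled cortical impact (CCI), a blow to the exposed cortex with a 3 mm tip to a depth of 1.5 mm, as a model of traumatic brain injury (TBI), and sham mice had the same surgery with no blow. In 2018, 3 sham libraries were sequenced with 3 TBI libraries from 7 days after injury; the study took its brain tissue around the contusion. In 2022, 3 further TBI libraries, which the study describes as vehicle-treated and the labels only as TBI, were sequenced with 3 from TBI mice given zileuton, an inhibitor of the enzyme 5-lipoxygenase, intraperitoneally in corn oil at 10 mg/kg per day. The library names of the zileuton mice all give 7 days, but their source labels give 7, 8 and 9 days. The 2022 count columns, numbered 2, 3 and 6, could be tied to a group but not to 1 of its mice, so a day could not be given to a column.

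The 2018 libraries held 42929862 to 48684674 counts and the 2022 libraries 27845562 to 35453257. Levels are given as CPM, the counts per 1000000 counts of the scaled library, and the p-values measure only the spread between the 3 libraries of each group. The libraries carried brain transcripts. The summed CPM of 8 neuronal markers was 7100 to 7770 in sham and 4590 to 5710 in TBI. All 8 were lower in TBI, 3 of them past the test. Astrocyte markers were higher (7 of 8 past the test, 3840 to 4280 CPM in sham and 7450 to 7790 in TBI), as were 6 of 8 oligodendrocyte markers (5340 to 5990 CPM and 6190 to 11200). The libraries differed in choroid plexus, whose 6 markers summed to 1080 CPM in sham library 1 but to 18.7 and 55.0 in the other 2 sham libraries, and to 1160 to 1340 in TBI. None of the 6 passed the edgeR test, with 1 at an unadjusted p under 0.05, and DESeq2 and limma called 0 as well. All 6 libraries of 2018 also held Xist, a transcript of female cells, at 856 to 1155 counts beside the Y-linked Ddx3y at 2518 to 3008, whereas the 2022 libraries held 1 to 6 counts of Xist. The embryonic globin Hba-x had 14 to 46 counts in sham libraries and 0 in the others. The part of these transcripts in the results was not tested.

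The first comparison asked which of these genes differed between injured and sham brain. TBI raised 9 of the 10 genes, all 6 proteases and every inhibitor but Timp3, at an adjusted p under 0.05 (edgeR quasi-likelihood test, Benjamini-Hochberg). The largest measured rise was of Mmp12, 28.6-fold, followed by Mmp19 with 11.7-fold and Timp1 with 11.0-fold. Of all 19536 genes tested, 28.0% passed the threshold, 16.8% higher and 11.2% lower. Mmp3 and Mmp12 had enough counts to enter the test only through their TBI libraries, so for them the filter favours a rise. With at least 10 counts required in every library, 7 of 8 of these genes passed, among 5220 of 17287 genes. The median log2 fold change of the 10 genes was 1.93, against 0.02 over all genes tested, and it was the same with Mmp3, which had no sham counts, set at its lower bound. In 8 of the 10 genes no TBI library overlapped a sham library in CPM, as was so for 44.4% of all genes tested. In bulk tissue, more cells of a type and more RNA per cell cannot be told apart.

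**Figure D1:**
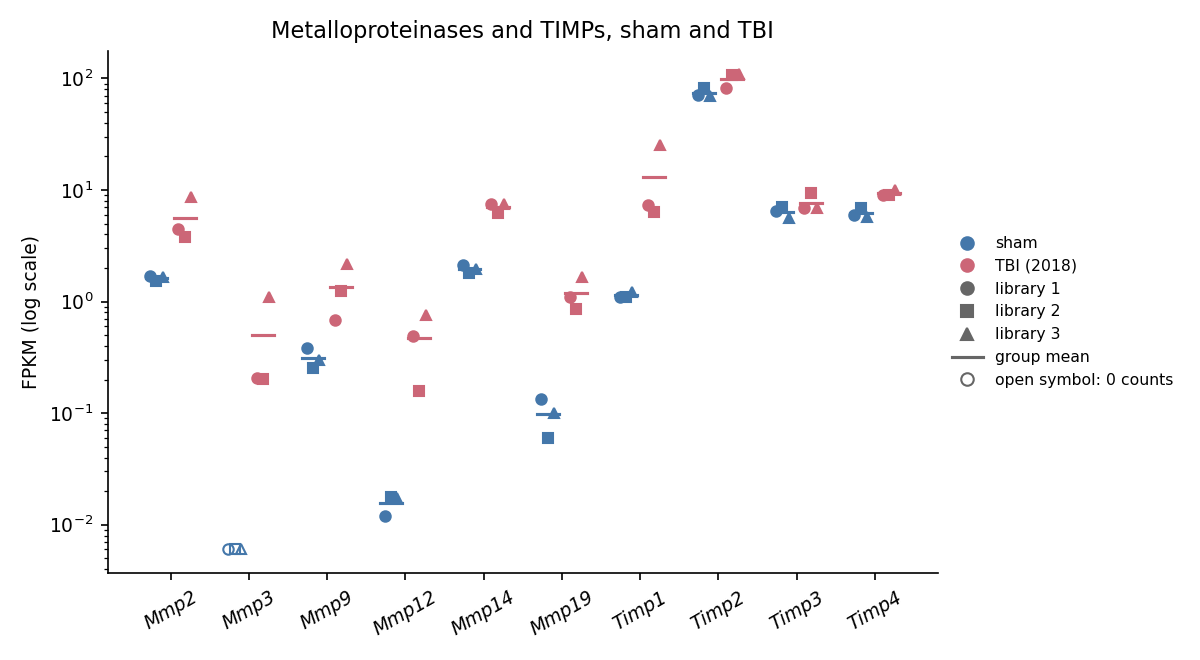
FPKM of each gene on a log scale in the 3 sham (blue) and 3 TBI (red) libraries of 2018, with a symbol for each library number and a line for the group mean; open symbols mark 0 counts. Mmp3 was at 0 counts in all 3 sham libraries, and in FPKM only Timp3 had TBI libraries at or below a sham library.

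Mmp3 (ENSMUSG00000043613) and Mmp12 (ENSMUSG00000049723) went from almost no counts to a clear signal, and both lie on chromosome 9. The promoter windows are printed from RefSeq (GRCm38.p6, the build of that table and not the GRCm39 build named in the submitters' notes), because these 2 genes were the only ones of the 7 with an entry whose window held a match to the AP-1 motif TGANTCA, searched on both strands. Each window runs from 250 bases before to 50 bases after an annotated start, and capitals mark matches to TGANTCA and, on the coding strand, to TATAAA. Mmp3 is at chr9:7445572-7445871 on the plus strand. The Mmp12 window shown, the downstream of its 2 annotated starts, is at chr9:7347124-7347423 on the plus strand. The window of the upstream Mmp12 start, at chr9:7344147-7344446, is not shown and held neither motif. For comparison, Timp1 (chrX:20869916-20870215, plus strand), which also rose, and Timp2 (chr11:118355362-118355661, minus strand), the most abundant inhibitor, are shown and hold no match to these letters. The Timp1 window does hold TGAGTAA near its end, a near match that TGANTCA does not count. A window without a match may therefore still hold a site of other letters.
Mmp3: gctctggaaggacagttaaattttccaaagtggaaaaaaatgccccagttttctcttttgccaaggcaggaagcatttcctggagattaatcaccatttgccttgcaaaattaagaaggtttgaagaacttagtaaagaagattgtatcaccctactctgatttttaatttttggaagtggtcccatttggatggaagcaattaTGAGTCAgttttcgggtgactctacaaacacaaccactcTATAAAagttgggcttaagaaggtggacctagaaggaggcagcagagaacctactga
Mmp12: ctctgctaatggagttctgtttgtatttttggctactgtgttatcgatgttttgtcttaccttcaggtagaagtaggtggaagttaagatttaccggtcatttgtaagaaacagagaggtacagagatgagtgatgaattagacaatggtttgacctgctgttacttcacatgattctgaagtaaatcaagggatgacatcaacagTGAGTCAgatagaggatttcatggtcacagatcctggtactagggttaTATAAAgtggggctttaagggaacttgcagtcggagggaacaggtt
Timp1: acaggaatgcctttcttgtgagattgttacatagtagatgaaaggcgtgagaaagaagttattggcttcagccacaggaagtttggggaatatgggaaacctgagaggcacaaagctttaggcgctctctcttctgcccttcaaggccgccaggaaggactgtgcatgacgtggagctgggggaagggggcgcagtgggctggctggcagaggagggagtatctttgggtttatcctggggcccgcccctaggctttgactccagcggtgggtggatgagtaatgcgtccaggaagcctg
Timp2: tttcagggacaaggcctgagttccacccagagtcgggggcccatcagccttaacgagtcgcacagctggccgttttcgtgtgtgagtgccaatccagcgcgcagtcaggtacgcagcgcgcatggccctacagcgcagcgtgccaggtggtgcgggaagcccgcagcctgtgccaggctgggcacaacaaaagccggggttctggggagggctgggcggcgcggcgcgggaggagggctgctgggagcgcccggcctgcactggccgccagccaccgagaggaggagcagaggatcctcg
With position 1 at the annotated start, the TGAGTCA of Mmp3 began at position -46 and that of Mmp12 at position -44, and the TATAAA matches began at -7 and 5. Of all 32544 promoter windows in the table, 7.79% held TGANTCA and 8.28% held TATAAA. The GC content was 40.0% in the Mmp3 window and 40.7% in that of Mmp12, against 55.0% for Timp1 and 68.7% for Timp2. The table had no entry for Mmp2, Mmp9 and Mmp19. A match of letters is a description of the window and not a bound site.

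Mmp2 (ENSMUSG00000031740) and Mmp9 (ENSMUSG00000017737) are the gelatinases, which cleave denatured collagen and the type IV collagen of basement membranes. Mmp2 was at 5.90, 5.21 and 5.66 CPM in the sham libraries and at 14.8, 12.3 and 28.9 CPM in the TBI libraries. All 3 TBI libraries were above the sham libraries, and TBI library 3 was the highest. On the log2 scale it rose by 1.74 (standard error 0.293, adjusted p = 0.00277). Mmp9 was at 1.398, 0.908 and 1.07 CPM in sham and at 2.40, 4.23 and 7.59 CPM in TBI. The groups did not overlap, but the TBI libraries were spread widely, again with library 3 the highest. Mmp9 rose by 2.07 on the log2 scale (standard error 0.41, adjusted p = 0.00607).

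Mmp3, stromelysin 1, cleaves many matrix proteins and activates other metalloproteinases. Its counts were 0 in all 3 sham libraries and 18, 17 and 85 in the TBI libraries. Counts of 2018 were mostly even (62.3% to 64.4% of those from 1 to 20), so that a read pair appears to have counted as 2, and the limit for a count of 0 was set at 6 counts per library, or 3 pairs. Against that limit Mmp3 was at least 6.91-fold higher in TBI (adjusted p = 0.00896), and at least 2.76-fold higher without TBI library 3. Mmp12, the macrophage metalloelastase, had 4, 6 and 6 counts in sham and 172, 54 and 237 in TBI. Every TBI library was far above the sham libraries, although library 2 had less than the other two. Mmp12 rose by 4.84 on the log2 scale (standard error 0.639, adjusted p = 0.00076), with sham counts at or below that limit.

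Mmp14 (ENSMUSG00000000957), a membrane-anchored protease that activates the Mmp2 precursor, had the highest mean FPKM of the 6 proteases in both groups. In TBI library 3, Mmp2 was above it (8.60 against 7.56 FPKM). The counts of Mmp14 were 585, 505 and 568 in sham and 2161, 1732 and 1934 in TBI. Both groups were tight and lay far apart. The log2 fold change of 1.79 had the smallest standard error among the proteases (0.119, adjusted p = 1.9e-05). Mmp19 (ENSMUSG00000025355), a secreted protease that cleaves basement membrane proteins, had 22, 10 and 17 counts in sham and 188, 142 and 251 in TBI. The groups did not overlap, and the rise was 3.55 on the log2 scale (standard error 0.385, adjusted p = 0.000246).

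Among the inhibitors, Timp1 (ENSMUSG00000001131), which is known as the inducible TIMP, was at 0.999, 0.994 and 1.09 CPM in sham and at 6.48, 5.48 and 22.2 CPM in TBI. The sham libraries were nearly equal, and TBI library 3 stood well above the other two TBI libraries. The rise of Timp1 was 3.46 on the log2 scale (standard error 0.536, adjusted p = 0.00179), and 2.54 without TBI library 3 (adjusted p = 0.000182). Timp4 (ENSMUSG00000030317), an inhibitor found in brain and heart, was at 35.9, 41.3 and 34.0 CPM in sham and at 52.9, 51.2 and 59.2 CPM in TBI. The groups did not overlap, and the rise was 1.47-fold (log2 fold change 0.55, standard error 0.098, adjusted p = 0.00352).

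Timp2 (ENSMUSG00000017466), which both inhibits proteases and takes part with Mmp14 in activating Mmp2, was at 284.5, 322.8 and 273.3 CPM in sham and at 316.6, 402.2 and 421.2 CPM in TBI. In CPM the lowest TBI library lay below the highest sham library, whereas in FPKM (69.1 to 81.5 in sham and 82.1 to 108 in TBI) the groups did not overlap. Its log2 fold change of 0.37 (standard error 0.117) was just past the threshold (adjusted p = 0.0436). The call was lost with DESeq2's size factors (adjusted p = 0.056), with the gene length trend removed (0.0817) and on leaving out any 1 library other than TBI library 1 (0.0571 to 0.159). Timp3 (ENSMUSG00000020044), which is held in the matrix and also inhibits ADAM proteases, was at 53.8, 58.1 and 46.3 CPM in sham and at 55.6, 73.1 and 56.5 CPM in TBI. The groups overlapped, and the log2 fold change of 0.23 (standard error 0.126) did not pass the test (adjusted p = 0.219).

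**Figure D2:**
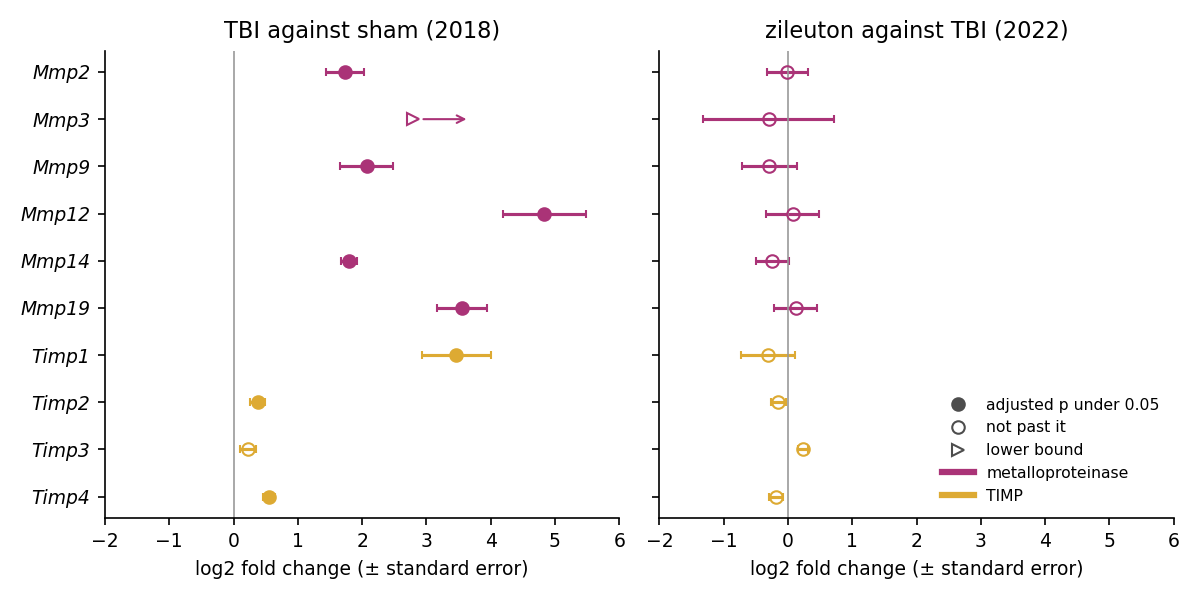
Log2 fold change of each gene with its standard error, for TBI against sham in 2018 (left) and for zileuton against TBI in 2022 (right), 3 libraries per group; filled points had an adjusted p under 0.05, and the arrow marks the lower bound for Mmp3. On the left, 9 of the 10 genes were higher and past the threshold, from 0.37 for Timp2 to 4.84 for Mmp12, and on the right none was past it.

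TBI library 3 had the highest CPM of every gene of the 10 but Timp3. That library also had the highest summed CPM of fibroblast, meningeal and pericyte markers (933, against 609 and 379 in TBI libraries 1 and 2), of microglia and macrophage markers (2480, against 1740 and 1880) and of neutrophil markers (64.0, against 16.6 and 27.9). In sham libraries the same sums were 270 to 284, 348 to 410 and 0.908 to 1.62 CPM. Past the test, 12 of 12 microglia and macrophage markers, 5 of the 6 tested neutrophil markers (of 10 listed), 7 of 10 fibroblast, meningeal and pericyte markers and 6 of 8 endothelial markers were higher in TBI (endothelial sums of 98.3 to 136 CPM in sham and 139 to 214 in TBI). Of the neutrophil list, Ly6g, Camp, Mpo and Elane had too few counts to be tested. The part of these cells in the protease and inhibitor levels was not tested. Without TBI library 3, the count of genes past the threshold was 8, with Timp2 lost, and it was also 8 without sham library 1, 2 or 3. Sham library 1 was the sham library closest to TBI in choroid plexus markers. Leaving it out widens that difference and does not test its part.

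Levels of different genes were compared per kilobase of transcript, in the deposited FPKM. These divide the fragments of a gene by the length used for it and the library total, so the order depends on those lengths. In sham brain, Timp2 was highest with 74.0 ± 6.65 FPKM (SD, n = 3), far above Timp3 with 6.35 ± 0.715 and Timp4 with 6.18 ± 0.637, whose libraries overlapped. Mmp14 (1.97 ± 0.162), Mmp2 (1.63 ± 0.0966), Timp1 (1.14 ± 0.0659), Mmp9 (0.312 ± 0.0675), Mmp19 (0.0983 ± 0.0373) and Mmp12 (0.0156 ± 0.00315) followed, each without overlap with the next, and Mmp3 was at 0. After TBI, Timp2 stayed first with 99.3 ± 14.9 FPKM, and Timp1 moved from place 6 to place 2 with 13.0 ± 10.5. Timp1, Timp4 (9.39 ± 0.599), Timp3 (7.73 ± 1.38), Mmp14 (7.07 ± 0.758) and Mmp2 (5.61 ± 2.62) then formed a chain in which each overlapped the next, and Mmp2 lay clear of Mmp9. The low end held Mmp9 (1.36 ± 0.741), Mmp19 (1.20 ± 0.41), Mmp3 (0.502 ± 0.517) and Mmp12 (0.47 ± 0.302), again each overlapping the next. The order was not the same in the 2022 table, where Mmp12 held place 6 of the 10 in TBI with 6.58 ± 2.47 TPM.

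Summed, the 4 inhibitors were thus more abundant than these 6 proteases in every library, but by a smaller factor after injury. Summed over the 4 TIMPs and the 6 proteases in FPKM, the ratio of inhibitor to protease transcripts was 19.4, 26.4 and 20.2 in sham and 7.35, 10.6 and 6.90 in TBI. The ratios did not overlap. They cover these 6 proteases only and leave out the further metalloproteinases. Of those, Mmp17 alone was at 40.9, 37.5 and 44.9 FPKM in sham and at 37.2, 28.3 and 34.1 in TBI. The 6 proteases summed to 3.65 to 4.37 FPKM in sham and 12.4 to 21.8 in TBI, below Mmp17 alone in every library of 2018. A ratio over the whole family was not taken. The smaller ratio after injury therefore holds for the 6 chosen proteases and cannot be extended to the family. Timp1 made up 1.14% to 1.49% of the summed TIMPs in sham and 7.00%, 4.86% and 16.6% in TBI. Timp2 remained the main inhibitor transcript with 84.1% to 84.7% in sham and 72.0% to 81.2% in TBI.

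**Figure D3:**
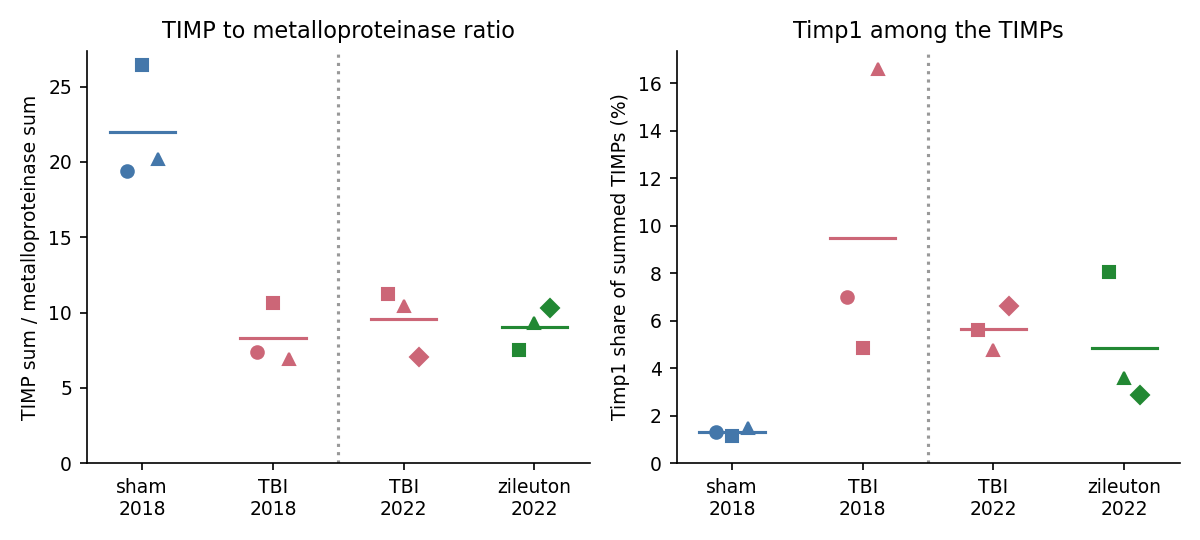
Left, summed FPKM (2018) or TPM (2022) of the 4 TIMPs divided by that of the 6 proteases in each library; right, Timp1 as a percent of the summed TIMPs, with lines for group means. The ratio was 19.4 to 26.4 in sham and 6.90 to 10.6 in TBI of 2018. It leaves out the further metalloproteinases, among them the abundant Mmp17. The groups on either side of the dotted line were not compared because their units and tables differ.

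Several of these genes share their place in the genome with another gene, and whether the counting used strand is not given in the sources used here. In GENCODE release M21 (GRCm38), Timp1, Timp3 and Timp4 lie within Syn1, Syn3 and Syn2 on the opposite strand, and exons overlap for Timp3 and Timp4. Syn2 had 18957 to 19538 counts in sham and 13596 to 17665 in TBI, and Syn3 had 493 to 741 and 287 to 361, so both went down where Timp4 went up. Exons of Mmp19 overlap those of Tmem198b, which had 137 to 173 counts in sham and 301 to 342 in TBI, more than Mmp19 itself. Exons of Mmp12 overlap those of Mmp1b on the opposite strand, which had 0 counts in every library of 2018. The counts of Mmp12, Mmp19, Timp3 and Timp4 are uncertain to that extent.

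The remaining metalloproteinases showed both directions. Of 17 further family members, 11 were tested. Past the threshold, 4 were higher and 2 lower, against 16.8% and 11.2% of all genes tested. By sign alone, 8 of the 11 were higher and 3 lower. Their median log2 fold change was 0.60, also with Mmp27 at its lower bound. DESeq2 called 10 of the 17 and limma without a filter 2. The 4 that rose were near 0 in sham. They had enough counts to enter the test only through their TBI libraries, so the count filter favours a rise among such genes. Mmp13, a collagenase, had 0, 10 and 0 counts in sham and 220, 12 and 2634 in TBI. Its level thus varied over a wide range among TBI mice, and library 2 barely passed the highest sham library (log2 fold change 8.20, standard error 2.06, adjusted p = 0.0177). Mmp8, the neutrophil collagenase, had 0, 2 and 0 counts in sham and 54, 40 and 170 in TBI (adjusted p = 0.00161). Mmp27 had 0 counts in every sham library and 64, 19 and 49 in TBI, at least 7.27-fold higher (adjusted p = 0.00213). Mmp25, a membrane-anchored protease of leukocytes, had 4, 0 and 4 counts in sham and 24, 45 and 53 in TBI (adjusted p = 0.00488).

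The 2 that fell were the membrane-type proteases Mmp16 (27.5 ± 3.74 to 20.1 ± 2.88 CPM, SD, n = 3 in both groups, -0.45 on the log2 scale, adjusted p = 0.0364) and Mmp24 (37.7 ± 3.39 to 30.3 ± 2.55 CPM, log2 fold change -0.32, adjusted p = 0.0436). Mmp17 was the most abundant further member in CPM (277 ± 25.0 in sham and 216 ± 32.3 in TBI) and did not pass the test (log2 fold change -0.36, adjusted p = 0.0512). Mmp11 (log2 fold change 0.96, adjusted p = 0.0543), Mmp15 (0.48, 0.0511), Mmp23 (0.60, 0.0554) and Mmp28 (0.19, 0.556) did not pass it either.

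**Figure D4:**
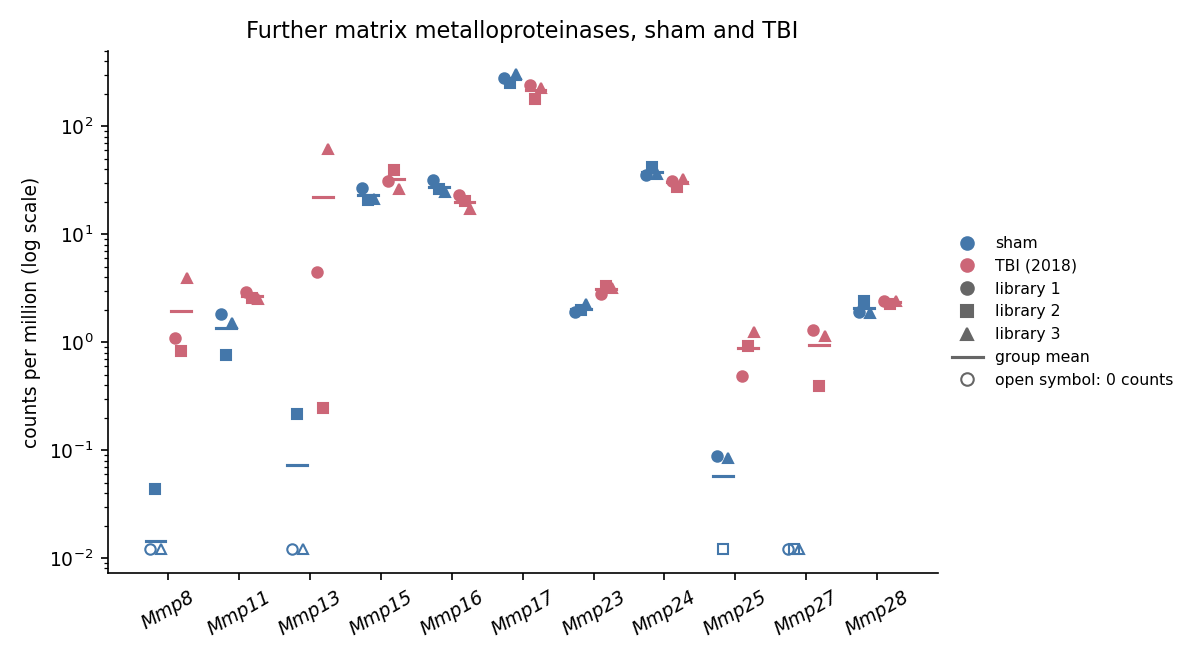
CPM on a log scale of the 11 tested further metalloproteinases in the 3 sham (blue) and 3 TBI (red) libraries of 2018, with lines for group means and open symbols for 0 counts. Mmp8, Mmp13, Mmp25 and Mmp27 lay near 0 in sham and rose, while Mmp16 and Mmp24 fell.

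Mmp3 and Mmp12 share their stretch of chromosome 9 with many of these relatives, a grouping made after the values were seen. RefSeq's promoter table places 10 metalloproteinase genes on chromosome 9, of which 9 were in the 2018 table. In 6 of them (Mmp3, Mmp8, Mmp10, Mmp12, Mmp13 and Mmp27) every TBI library was above every sham library, and no sham library of these 6 had over 10 counts. The groups were apart in either direction, a wider criterion, in 44.4% of all genes tested. The share for a rise alone was not computed, and Mmp10 had too few counts to be tested. Mmp10 had 16, 8 and 30 counts in TBI and 0 in sham, at least 3.05-fold higher, or 1.89-fold without TBI library 3. Mmp1a, Mmp1b and Mmp7 had at most 6 counts in any library. Of the 10 genes, 8 had a TGANTCA match in a promoter window, Mmp8 and Mmp27 being the exceptions, against 0 of the 8 metalloproteinase genes on other chromosomes with an entry. Mmp1a, Mmp1b and Mmp7 thus carried the match with almost no counts, and Mmp8 and Mmp27 rose with no match in this window.

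Genes that act on the proteases or are cut by them were also examined. Of 20 regulators and partners, 15 were tested, and their median log2 fold change was 1.29. Past the threshold, 13 were higher and 1 lower, against 16.8% and 11.2% of all genes tested. A2m, a broad protease inhibitor that traps its targets, rose from 1.998 ± 0.448 to 114 ± 51.7 CPM (log2 fold change 5.84, adjusted p = 1.8e-05). Lcn2, a secreted lipocalin, rose from 0.239 ± 0.201 to 26.4 ± 18.1 CPM (6.78, adjusted p = 0.000257). Bsg, the surface protein also called EMMPRIN that induces metalloproteinases, and Lrp1, a receptor that clears proteases and their complexes, rose by 0.40 (adjusted p = 0.00399) and 0.27 (adjusted p = 0.0291) on the log2 scale. The 1 that fell was Serpini1, which encodes neuroserpin, with a log2 fold change of -0.80 (adjusted p = 0.00392), named after its value was seen. Reck, a membrane-bound inhibitor of metalloproteinases, was at 7.88 ± 1.57 CPM in sham and 8.79 ± 1.76 CPM in TBI (adjusted p = 0.596), and is likewise named after its value was seen.

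Basement membrane components are among the substrates. Past the threshold, 15 of 24 were higher and 0 lower, against 16.8% and 11.2% of all genes tested. By sign alone, 21 were higher and 3 lower (median log2 fold change 0.47). Their summed level was 672 to 758 CPM in sham and 1270 to 1370 CPM in TBI. Sparc, a collagen-binding matrix protein, took much of that sum and rose from 242 ± 22.9 to 629 ± 57.9 CPM (log2 fold change 1.38, adjusted p = 3.2e-05). The type IV collagen chains Col4a4 and Col4a6 rose by 1.98 (adjusted p = 0.0074) and 1.73 (adjusted p = 0.00495) on the log2 scale, whereas the proteoglycan Agrn was at 148 ± 13.0 and 147 ± 7.98 CPM (adjusted p = 0.975).

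Related protease families were examined in the same way. Past the threshold, 4 of 11 tested ADAM genes were higher and 2 lower (median log2 fold change 0.09). Of 19 ADAMTS genes, 5 were higher and 1 lower past it (median 0.43), with 3 called by limma without a filter. Over all genes tested 28.0% passed the threshold. Adam8, found on leukocytes, and Adam17, which sheds TNF from the cell surface and is inhibited by Timp3, rose by 3.30 (adjusted p = 0.000173) and 1.35 (adjusted p = 2.5e-05) on the log2 scale. Adam22 and Adam23, synaptic receptors without protease activity, fell by 0.49 (adjusted p = 0.00101) and 0.62 (adjusted p = 0.00262). Adamts12 and Adamts9 rose by 2.48 (adjusted p = 0.0104) and 1.28 (adjusted p = 0.00398), and the abundant Adamts4, an aggrecanase, and Adamts10 did not pass the test (adjusted p = 0.0749 and 0.127).

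Profiles over the 6 libraries of 2018 were compared by the mean absolute difference in log2 CPM after centring on the sham mean. Closest to Timp1 were Glipr1 (0.24), Klrb1b (0.274) and Slfn2 (0.279). Closest to Mmp12 were Mmp27 of the same chromosome (0.299), Tnfsf8 (0.312) and the chemokine gene Ccl7 (0.324). Klrb1b, Mmp27 and Tnfsf8 had 0 counts in every sham library. A prior count of 2 was added before the log, and the closeness of these low-count genes depends on it.

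The second comparison asked whether zileuton changed these genes after TBI. None of the 10 passed the edgeR test at an adjusted p under 0.05, and neither did any of the 17363 genes tested (0.0%). DESeq2 called 26 genes over the whole table, edgeR without its filter 4 and limma 0 to 4, none of them among the 10. At an unadjusted p under 0.05, 1186 genes or 6.83% passed, and 1 of the 10, Timp3. The median log2 fold change of the 10 was -0.17, against 0.00 over all genes. With 3 libraries per group an exact permutation test cannot go below 0.1.

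Timp3 was at 114.6, 125.7 and 121.0 CPM in TBI and at 147.9, 147.2 and 128.9 CPM with zileuton. It was the 1 gene of the 10 whose groups did not overlap, as was so for 13.6% of all genes tested. The difference was 0.23 on the log2 scale (standard error 0.0799, unadjusted p = 0.0197, adjusted p = 0.713). Log2 fold changes rose with gene length across genes in this comparison (Spearman's rho 0.31, genes not being independent), and with that trend removed none of the 10 was under an unadjusted p of 0.05.

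Timp1, the inhibitor that rose most after injury, was at 6.79, 7.26 and 8.88 CPM in TBI and at 11.0, 4.43 and 3.03 CPM with zileuton. The zileuton libraries lay on both sides of the TBI libraries, with column 2 the highest of all 6. The fitted difference was -0.31 on the log2 scale (standard error 0.414, adjusted p = 0.87). Timp2 (432.7, 578.9 and 483.1 CPM in TBI, 486.6, 456.1 and 405.8 with zileuton) and Timp4 (28.8 to 38.0 CPM and 27.9 to 29.8) also overlapped between the groups, with log2 fold changes of -0.15 (standard error 0.123) and -0.19 (standard error 0.114).

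Mmp3 had 3, 34 and 23 estimated counts in TBI and 41, 3 and 3 with zileuton, so that both groups held libraries near 0 and libraries with a clear signal. Mmp9 had 52, 67 and 62 in TBI and 85, 26 and 35 with zileuton. Column 2 was again the highest of the zileuton libraries, for Mmp3 and Mmp9 as for Timp1. The log2 fold changes were -0.30 (standard error 1.02) for Mmp3 and -0.29 (standard error 0.425) for Mmp9. For Mmp9 the TPM with zileuton were 1.70, 1.54 and 1.50, closer together than the counts, and against 1.31, 1.33 and 1.88 TPM in TBI the direction turned (log2 fold change 0.05 with limma on log2(TPM + 1)).

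Mmp14 was at 32.6, 33.5 and 52.4 CPM in TBI and at 46.6, 27.3 and 26.25 CPM with zileuton. Mmp2 spanned 5.31 to 12.9 CPM in TBI and 7.285 to 11.9 CPM with zileuton, Mmp12 2.23 to 6.405 and 3.42 to 7.32, and Mmp19 3.43 to 5.31 and 3.425 to 7.76. The groups overlapped in all 4. Their log2 fold changes were -0.24 for Mmp14 (standard error 0.259), -0.01 for Mmp2 (0.316), 0.07 for Mmp12 (0.409) and 0.12 for Mmp19 (0.334).

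**Figure D5:**
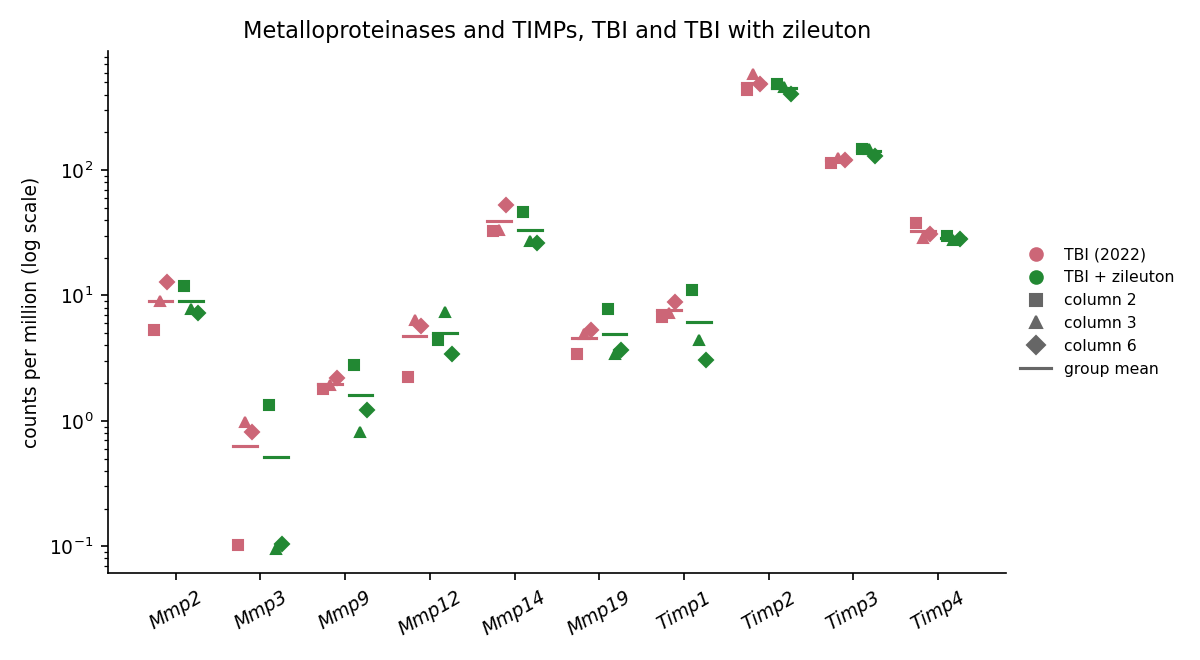
CPM of each gene on a log scale in the 3 TBI (red) and 3 TBI with zileuton (green) libraries of 2022, with a symbol for each column number and a line for the group mean. Timp3 was the 1 gene whose groups did not overlap, and the zileuton library of column 2 was the highest of its group for Timp1 (11.0 CPM) and Mmp14 (46.6 CPM).

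Several of these values rested on the zileuton library of column 2. Without it, 4 of the 10 genes were under an unadjusted p of 0.05, all lower with zileuton, among 10.8% of all genes. They were Timp1 (log2 fold change -1.03, adjusted p = 0.298), Mmp9 (-0.95, adjusted p = 0.389), Mmp14 (-0.56, adjusted p = 0.421) and Mmp3 (-2.63, adjusted p = 0.421), and none of the 10 passed the adjusted threshold. That library also had the highest summed neutrophil markers (6.51 CPM, against 1.10 and 1.36 in the other 2 zileuton libraries and 2.75 to 5.29 in TBI) and more of microglia and macrophage markers (2610, against 2070 and 1750, and 1690 to 2980 in TBI). Choroid plexus markers ranged from 11.0 to 1060 CPM in TBI and from 14.9 to 1480 with zileuton. The part of these cells in the result was not tested. Summed in TPM, the ratio of the 4 TIMPs to the 6 proteases was 11.2, 10.4 and 7.02 in TBI. With zileuton it was 7.53, 9.33 and 10.3, and the groups overlapped.

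None of the other gene lists had a member past the adjusted threshold with zileuton in edgeR, DESeq2 or limma without a filter. At an unadjusted p under 0.05 were 0 of 11 further metalloproteinases, 0 of 15 regulators and 0 of 24 basement membrane genes. So were 2 of 11 ADAM genes and 2 of 18 ADAMTS genes, against 6.83% of all genes tested. Adam23 was at 133 ± 13.3 CPM in TBI and 162 ± 17.0 CPM with zileuton (unadjusted p = 0.0287), and Adamts4 at 36.4 ± 11.1 and 54.5 ± 3.75 CPM (unadjusted p = 0.021), whereas Adamts13 was at 0.824 ± 0.160 and 0.443 ± 0.113 CPM (unadjusted p = 0.0337), all 3 with an adjusted p of 0.713. Mmp8, the neutrophil collagenase, had 62, 69 and 55 estimated counts in TBI and 64, 35 and 11 with zileuton (log2 fold change -0.75, standard error 0.49, adjusted p = 0.743).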

How the data were processed

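Mouse brain RNA-seq libraries of 4 groups of 3 were analysed as the 2 comparisons that share a table, sham with TBI (2018) and TBI with zileuton (2022). For 2018 the authors deposited whole-number counts of reads per gene and FPKM derived from them. For 2022 the authors deposited estimated counts, of which 13.0% to 15.2% per library were not whole, and TPM. The submitters' processing notes name HISAT2, Subread, featureCounts, DESeq2 and GRCm39, and strand use and annotation are not given in the sources used here. The plan assumed counts, so estimated counts were rounded.

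Counts were tested in R 4.3.3 with edgeR 4.0.16 (TMM, filterByExpr, glmQLFit, glmQLFTest) on 19536 and 17363 genes, with Benjamini-Hochberg adjustment. CPM use the TMM-scaled library size, and a standard error is the log2 fold change divided by the square root of F. The test was tried on simulated counts with planted changes. Alternatives were DESeq2 1.42.0 and its size factors, other filters, a replicate block, removal of a length trend, limma 3.58.1 on log2(value + 1) and log2(value + 0.1) of FPKM or TPM with a mean of at least 0.5, and leaving out each library. Same-numbered libraries did not deviate together (Pearson's r of -0.094 to -0.023 in 2018 and -0.282 to 0.063 in 2022), so no pairing was used.

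The 10 genes and the lists were chosen with earlier results of these data known. Named beyond the 10 are tested further metalloproteinases, and per list up to 2 genes with the highest mean CPM and 2 with the largest change. Reck, Serpini1 and the untested Mmp1a, Mmp1b, Mmp7 and Mmp10 were named outside that rule, after their values were seen. Lists were further metalloproteinases, regulators and partners, ADAM, ADAMTS, basement membrane components and markers of 8 cell types. Symbols came from a gene table (34808 of 35697 and 52081 of 55637 identifiers matched), promoters from RefSeq and overlaps from GENCODE M21. Figures used Python 3.11.15 and matplotlib 3.10.9.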

Additional observations from a re-analysis of the deposited data

How the results depend on the processing

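In TBI against sham, 7 to 9 of the 10 genes were past the threshold under the alternatives other than limma without a filter, where 5 were (Mmp3, Mmp9, Mmp12 and Timp2 lost), and under the 3 settings with 7 only 8 of the 10 had levels high enough to enter. Leaving out each library gave 8 to 9. Where the count was 8, Timp2 was the gene lost. With a replicate block 8 of the 10 genes and 4337 genes in all were past the threshold in TBI against sham (Timp2 at an adjusted p of 0.0564), and 0 in zileuton against TBI. In zileuton against TBI the count was 0 throughout. Signs changed only there, among values that never passed the threshold. Mmp2 had log2 fold changes of 0.031 with the replicate block, 0.022 with the length trend removed, and 0.101, 0.124 and 0.101 with limma (pseudocount 1, 0.1, and 1 without a filter), and Mmp9 had 0.048, 0.081 and 0.048 with the same 3. With each library left out, log2 fold changes ran from -0.294 to 0.345 for Mmp12, -0.559 to 0.014 for Mmp14, -0.359 to 0.331 for Mmp19, -0.28 to 0.324 for Mmp2, -2.633 to 0.198 for Mmp3, -0.952 to 0.031 for Mmp9 and -1.029 to 0.017 for Timp1. On the log2(FPKM + 1) scale the TBI changes of Mmp3, Mmp9, Mmp12, Mmp19 and Timp1 were smaller (0.535, 0.80, 0.512, 0.988 and 2.458), which adding 1 to sham levels of at most 1.14 FPKM makes by construction. The causes of the other changes were not tested. The limits set for a count of 0 cover counting error only.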
